A study of Homo sapiens with 6 samples.

Results

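The transcripts described here are 9 direct targets of the tumour suppressor p53: CDKN1A, GADD45A, BTG2, SESN1, TP53INP1, TP53I3, RRM2B, FAS and MDM2. They were taken by symbol from a table of 37879 gene rows, and all 9 were present, with 1 row each. The table came from 6 Illumina HumanWG-6 BeadChip arrays hybridized with total RNA of HEK293T, a human embryonic kidney line made to express the large T antigen of the virus SV40. In the control group, the cells of 3 samples had received an empty vector, and in the Stau1 group, those of the other 3 had received a plasmid coding for Stau155-FLAG, the 55-kDa isoform of the RNA-binding protein Staufen1 with a FLAG tag. Every sample was arrested in prometaphase with nocodazole, a drug that blocks spindle assembly, at 50 ng/ml for 15 h per the labels, although a longer treatment is stated in the methods of the study. The transfections were transient, and the share of cells that took up a plasmid is not given in the sources used here. Since large T, nocodazole and a plasmid were common to all 6 arrays, the kind of plasmid is the only planned difference between the groups. Other differences, as in culture or array handling, were not tested. The part of large T or of the arrest in the level of a transcript was not measured.

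p53 is a transcription factor that is held at a low level in unstressed cells and accumulates after DNA damage, nucleotide shortage or a prolonged mitosis. It then switches on genes that stop the cell cycle, repair DNA, restrain growth or lead to cell death, and among them MDM2, whose product is the ubiquitin ligase that marks p53 for destruction, which closes a feedback loop. SV40 large T binds p53 and blocks its contact with DNA, and the p53 so bound is long-lived, for which reason lines that carry large T are known for abundant p53 protein with little p53-dependent transcription.

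p53 recognizes DNA as a tetramer, through a response element made of 2 adjacent sites of 10 bases each. The consensus p53 response element, with no base between them and at most 3 mismatches over its 20 bases, was searched for in RefSeq promoter windows (GRCh38.p14) that run from 250 bases before to 50 bases after each annotated start. The consensus reads the same on both strands, and no other motif was searched. Of 35116 windows, 1826 (5.20%) held a match, and 110 (0.313%) held 2 or more. Of the 9 genes, 6 had entries, with 13 windows in all, and 4 windows of 3 genes held a match, namely MDM2, FAS and SESN1. Those of MDM2, with starts at 68809017 and 68809024, overlap and hold the same matches. The windows of CDKN1A, BTG2 and TP53I3 held no match, and GADD45A, RRM2B and TP53INP1 had no entry. Sites outside the windows were not searched. The matches are printed in capitals with the bases beside them, because they show the kind of site through which p53 acts on its targets; MDM2 is known for a pair of neighbouring response elements at its internal promoter. A match of letters is a description and does not show that p53 was bound in these cells.
MDM2, chr12:68808907-68808996, plus strand, with 2 matches of 2 and 3 mismatches that begin 94 and 56 bases before the start at 68809017: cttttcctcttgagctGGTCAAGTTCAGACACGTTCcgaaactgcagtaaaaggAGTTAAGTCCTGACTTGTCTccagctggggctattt
FAS, chr10:88991293-88991344, plus strand, with 1 match of 2 mismatches that begins 122 bases before the start at 88991431: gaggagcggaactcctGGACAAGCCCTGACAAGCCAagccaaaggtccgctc
SESN1, chr6:109009002-109009053, minus strand, with 1 match of 3 mismatches that begins 49 bases before the start at 109008988: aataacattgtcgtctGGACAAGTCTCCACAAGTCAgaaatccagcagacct

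The arrays were described by signal, detected rows and correlation. The median signal intensity over all rows lay between 82.96 (Stau1 replicate 1) and 102.2 (control replicate 3). From 12730 to 13469 rows had a detection p under 0.05 on an array. The correlation of the log2 values between 2 arrays, after normalization and over the rows tested below, lay between 0.987 and 0.996. The detection p of a row sets its signal against that of beads with no matching transcript, read on that array. For a row of several probes it is a combined value, which can be 0.05 or more at a bright signal. Only rows detected on 3 or more arrays were tested (13285 rows, 35.1%), and their background-corrected, quantile-normalized log2 intensities are the levels given below. Such levels are compared between arrays for 1 gene at a time and not between genes, whose probes differ in brightness. All 5 markers of mitotic cells (CCNB1, CDC20, PLK1, AURKA and BUB1) were detected on all 6 arrays. Of 5 genes known from HEK293 lines, the neurofilament genes NEFL and NEFM were detected on 6 arrays, LHX1 on 4, PAX2 on 1 and EYA1 on none; of 6 markers of other cells, PTPRC (blood), COL1A2 (fibroblasts) and KRT5 (keratinocytes) were detected on none, whereas CD68, COL1A1 and PECAM1 were detected on all. These 3 differed between Stau1 and control arrays by 0.0049, -0.25 and -0.20 (log2, limma adjusted p = 0.999 each), and their part in the results was not tested. The row of STAU1 itself stood at 11.31 ± 0.10 in control and 11.46 ± 0.06 in Stau1 arrays (log2, mean ± SD, n = 3 each), a difference of 0.15 (SE 0.09, limma adjusted p = 0.999), with every Stau1 array above every control array. That row averages several probes, and where they lie relative to the coding sequence on the plasmid is not given in the sources used here. At the protein level, the study reports by western blot that the tagged Stau1 was present in such cells, below the endogenous amount. The labels do not say whether the 3 samples of a group came from separate cultures, and if they did not, the p-values measure only technical spread.

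No p53 target transcript changed past the test's threshold between Stau1 and control cells. Of the 9 genes, 8 passed the detection filter, and MDM2 did not. For 7 of these 8, the 95% interval of the difference stayed within 1.5-fold in either direction, and for FAS within 2-fold. Among the 8, 3 had a higher and 5 a lower mean in Stau1 arrays, 0 had an adjusted p under 0.05 (limma with Benjamini-Hochberg adjustment over 13285 rows), and 0 had an unadjusted p under 0.05. Over all kept rows these shares were 0% (0 rows) and 3.73% (495 rows). The median difference of the 8 was -0.05 on the log2 scale, beside -0.00206 for all kept rows, and their median size was 0.10, beside 0.09. The standard errors were likewise near those of the whole table, with medians of 0.15 and 0.14. Each of the 8 was detected on all 3 control arrays and on at least 2 Stau1 arrays.

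**Figure D1:**
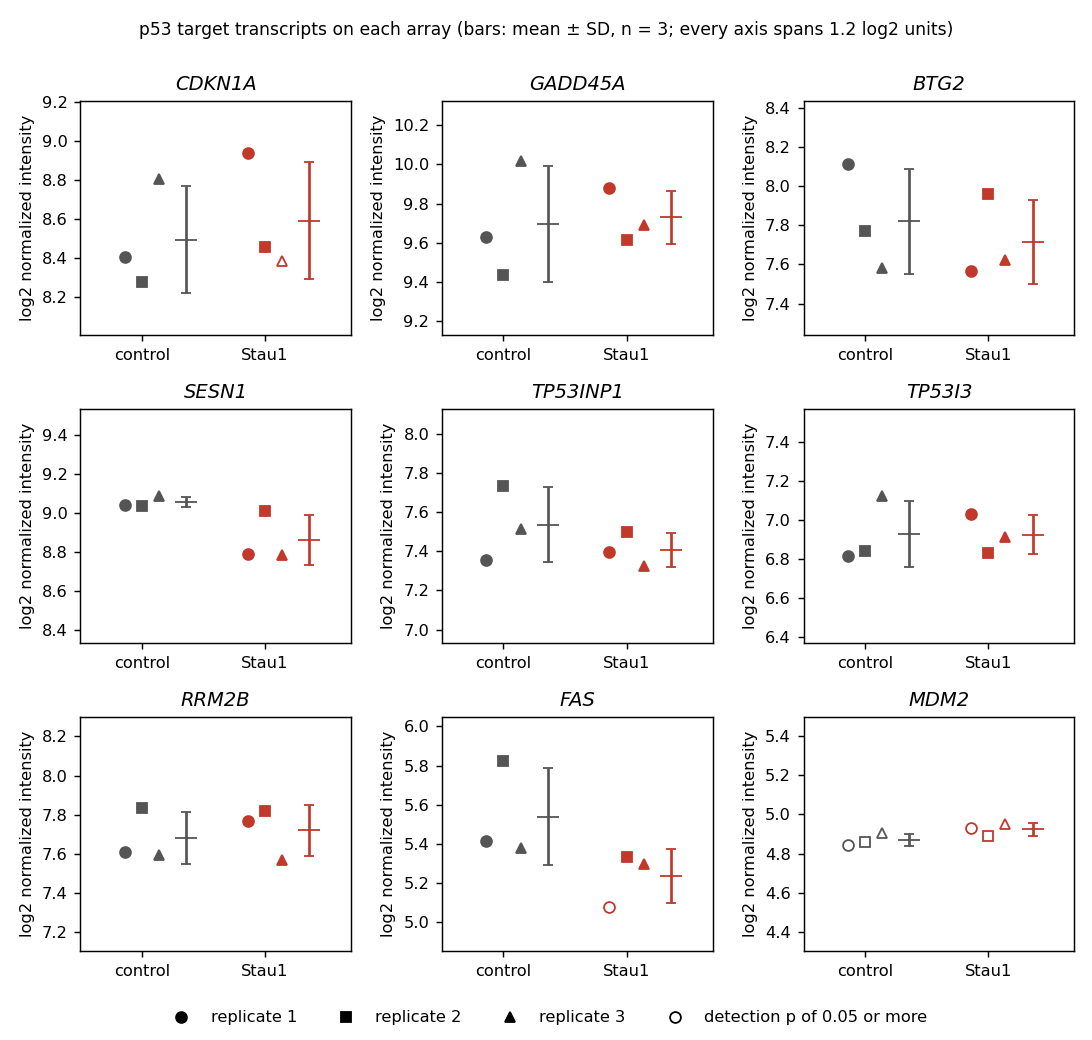
Normalized log2 intensity of each of the 9 transcripts on each array (vertical axes, 1.2 log2 units each), with control arrays in grey, Stau1 arrays in red, and mean ± SD beside them (n = 3). Open symbols mark a detection p of 0.05 or more: all 6 of MDM2, Stau1 replicate 3 of CDKN1A and Stau1 replicate 1 of FAS; the groups are apart in SESN1 and FAS and overlap in the other kept rows.

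The genes that restrain the cell cycle are CDKN1A, GADD45A and BTG2. CDKN1A on chromosome 6 codes for p21, which inhibits cyclin-dependent kinases and is the best known p53 target in cell cycle arrest. Its signal intensity was 336, 351 and 645 on control replicates 1 to 3 and 522, 461 and 432 on Stau1 replicates 1 to 3, and it was detected on 5 arrays, with a detection p of 0.0813 on Stau1 replicate 3. The row averages several probes and its detection p is a combined value, which on control replicate 1, of lower signal, was 0.000383. On the normalized log2 scale the levels were 8.41, 8.28 and 8.80 in control and 8.94, 8.46 and 8.38 in Stau1 arrays. The highest array was thus in the Stau1 group and the next in the control group, and the groups overlapped. The difference was 0.10 (SE 0.18, 95% interval -0.28 to 0.48, limma adjusted p = 0.999), or 1.07-fold. It turned to -0.01 without control replicate 2 and to -0.08 without Stau1 replicate 1, and was 0.25 without control replicate 3.

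GADD45A on chromosome 1, a stress-induced gene whose product binds PCNA and p21 and restrains the G2/M transition, was detected on all 6 arrays with a detection p of 0. Its signal was 676, 703 and 1397 in control and 940, 943 and 964 in Stau1 cells, which gave log2 levels of 9.63, 9.44 and 10.02 against 9.88, 9.62 and 9.69. The control arrays spanned a wider range than the Stau1 arrays and enclosed them. The difference was 0.04 (SE 0.15, 95% interval -0.28 to 0.35, limma adjusted p = 0.999), and it lay at -0.09 without control replicate 2, at -0.04 without Stau1 replicate 1 and at 0.20 without control replicate 3.

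BTG2, also on chromosome 1, is an antiproliferative partner of the CCR4-NOT deadenylase that slows the passage from G1 to S phase. Its log2 levels were 8.11, 7.77 and 7.58 in control and 7.57, 7.96 and 7.62 in Stau1 arrays, all detected. The order of the arrays was mixed, with the highest and the second lowest both in the control group. The difference was -0.11 (SE 0.17, 95% interval -0.48 to 0.27), and it lay at 0.04 without control replicate 1.

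**Figure D2:**
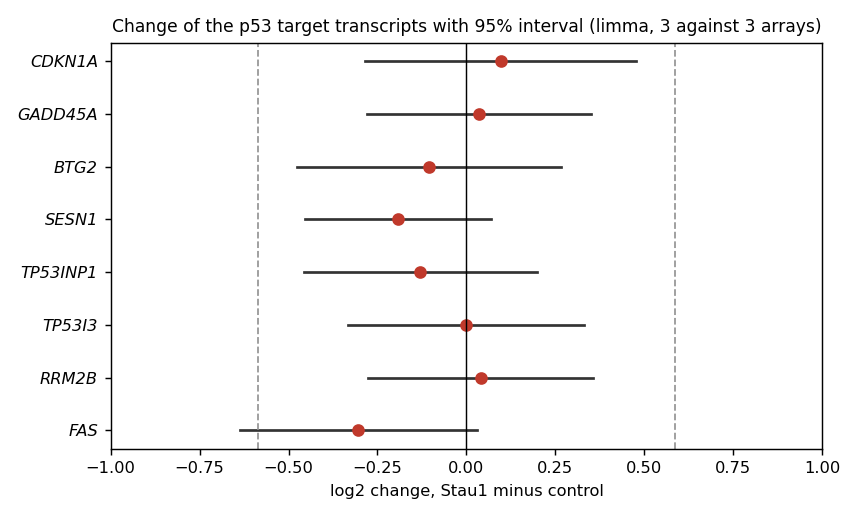
Difference between Stau1 and control arrays on the log2 scale (horizontal axis) for the 8 transcripts that passed the detection filter. Points are limma estimates from 3 against 3 arrays, bars 95% intervals, and dashed lines a 1.5-fold change. All 8 intervals include 0, and FAS alone reaches beyond 1.5-fold, on the lower side.

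Of the genes that act on growth and stress signalling, SESN1 and TP53INP1 had lower means in Stau1 arrays. SESN1 on chromosome 6 codes for sestrin 1, which restrains the growth kinase mTORC1 through AMPK and GATOR2. Its log2 levels in control arrays, 9.04, 9.04 and 9.09, were nearly equal, with an SD of 0.03, and only 1.72% of the kept rows had a smaller SD among control arrays. In Stau1 arrays they were 8.79, 9.01 and 8.78. Every Stau1 array was thus below every control array, although Stau1 replicate 2 came close to them. The difference was -0.19 (SE 0.12, 95% interval -0.45 to 0.07, limma unadjusted p = 0.134 and adjusted p = 0.999), or 0.875-fold, and the two-sided exact permutation test gave p = 0.1, the smallest that 3 arrays against 3 allow. Across the settings tried, the difference lay between -0.27 without Stau1 replicate 2 and -0.10 with median scaling in place of quantile normalization. Before normalization this order was not present: the signal intensities were 472, 546 and 763 in control and 475, 643 and 550 in Stau1 cells, with control replicate 1 the lowest of all.

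TP53INP1 on chromosome 8 codes for a stress-induced nuclear protein that promotes p53 phosphorylation and autophagy. Its log2 levels were 7.35, 7.74 and 7.52 in control and 7.40, 7.50 and 7.32 in Stau1 arrays. The groups overlapped through control replicate 1, and the difference was -0.13 (SE 0.15, 95% interval -0.46 to 0.20).

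TP53I3 and RRM2B act in metabolism. TP53I3 on chromosome 2 codes for PIG3, a quinone oxidoreductase. Its log2 levels of 6.82, 6.84 and 7.12 in control and 7.03, 6.83 and 6.92 in Stau1 arrays had nearly the same mean, with a difference of -0.0021 (SE 0.15, 95% interval -0.33 to 0.33), the sign of which changed with median scaling (0.07, where the median of all kept rows was also 0.07), with array weights (0.00425) and without control replicate 3 (0.09) or Stau1 replicate 2 (0.04) or 3 (0.00229). RRM2B on chromosome 8 codes for p53R2, the small ribonucleotide reductase subunit that supplies deoxynucleotides for repair. Its levels were 7.61, 7.83 and 7.59 in control and 7.77, 7.82 and 7.57 in Stau1 arrays. Both groups thus held 1 of the 2 highest and 1 of the 2 lowest arrays, and the difference was 0.04 (SE 0.15, 95% interval -0.28 to 0.36), with the opposite sign with array weights (-0.07), without control replicate 3 (-0.0021) and without Stau1 replicate 2 (-0.01).

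FAS on chromosome 10 codes for the death receptor that starts extrinsic apoptosis when it binds FAS ligand. Of the transcripts tested it had the difference farthest from 0, and it was also the one nearest the background: its signal intensity was 103, 117 and 119 in control and 84.8, 114 and 114 in Stau1 cells, on arrays whose background had estimated means of 74.6 to 92.7 and SDs of 15.2 to 18.2. It was detected on 5 arrays, with a detection p of 0.0715 on Stau1 replicate 1. The log2 levels were 5.42, 5.82 and 5.38 in control and 5.08, 5.33 and 5.30 in Stau1 arrays. All Stau1 arrays were below all control arrays, with little room between control replicate 3 and Stau1 replicate 2. The difference was -0.30 (SE 0.15, 95% interval -0.64 to 0.03, limma unadjusted p = 0.0709 and adjusted p = 0.999), or 0.810-fold, with an exact permutation p of 0.1. Its size rested on the background correction: it was -0.16 with no background correction, -0.17 with an offset of 50 and -0.02 with a background inferred from all rows, and it was -0.16 without control replicate 2. The other tested transcripts also had smaller differences with a background inferred from all rows, such as -0.02 for TP53INP1 and -0.10 for SESN1. The limma unadjusted p of FAS fell under 0.05 with array weights and without control replicate 1 or 3, and its adjusted p under no setting. Over all rows tested, 1298, 538 and 1658 had an unadjusted p under 0.05 in these settings, in place of 495. Of the 8 transcripts, 2 (FAS and SESN1) thus had groups that did not overlap, beside 7.91% of all kept rows (1051 rows).

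The row of MDM2 on chromosome 12, an average of several probes with a combined detection p, was not well above background on any of the 6 arrays. Its signal intensity was 79.8, 80.1 and 95.1 in control and 78.1, 93.2 and 98.0 in Stau1 cells, and the detection p lay between 0.174 (Stau1 replicate 1) and 0.624 (control replicate 3). The signals followed the background of each array, which was low on control replicates 1 and 2 and on Stau1 replicate 1, and they give neither a level nor a fold change of this transcript. MDM4, the relative of MDM2 that binds the p53 transactivation domain, was detected on all 6 arrays at 6.01 ± 0.34 in control and 6.21 ± 0.03 in Stau1 arrays, a difference of 0.20 (SE 0.18, limma adjusted p = 0.999).

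The 8 transcripts did not vary as 1 group. Over the 6 arrays, their 28 pairs had Pearson correlations between -0.804 (BTG2 with TP53I3) and 0.923 (GADD45A with TP53I3), with a median of -0.0841, and 12 were above 0. CDKN1A, GADD45A and TP53I3 were the most alike, at 0.892 for CDKN1A with GADD45A and 0.850 for CDKN1A with TP53I3. All 3 had their 2 highest arrays in control replicate 3 and Stau1 replicate 1, where CDKN1A stood 0.26 and 0.39 above its mean over the arrays, GADD45A 0.31 and 0.17, and TP53I3 0.20 and 0.10. Those are 1 array of each group, and also the arrays with the highest and the lowest median signal; whether the signal level had a part in this was not tested. FAS and TP53INP1 were alike in another way (0.793), with control replicate 2 the highest for both. These correlations come from 6 arrays that share their normalization and are descriptions only. Among all 13283 rows for which a correlation could be computed, 113 had one above 0.9 with CDKN1A, and those of highest value were SELO (0.989), RAPSN (0.975) and CDC2L2 (0.974); GADD45A ranked 138.

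**Figure D3:**
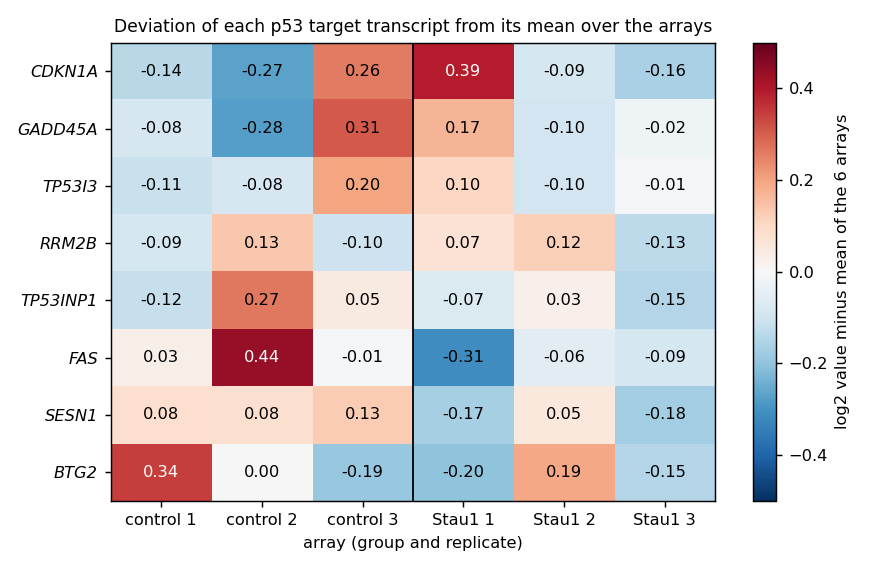
Deviation of each transcript from its own mean over the 6 arrays (colour and printed value, log2), with arrays in columns, control left of the line and Stau1 right of it. CDKN1A, GADD45A and TP53I3 are highest on control replicate 3 and Stau1 replicate 1, FAS and TP53INP1 on control replicate 2, and BTG2 on control replicate 1.

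For the 9 transcripts the standard error over beads of 1 array was 2.52% to 6.69% of the signal, from a mean of 33.5 to 55.5 beads. The SD among control arrays exceeded that among Stau1 arrays for 6 of the 8 tested transcripts, as it did for 68.4% of all kept rows, whose median SDs were 0.17 and 0.12. SESN1 was among the exceptions, with 0.03 in control and 0.13 in Stau1 arrays, and CDKN1A was the other, with 0.27 and 0.30. For RRM2B both were nearly equal, at 0.133 and 0.132.

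**Figure D4:**
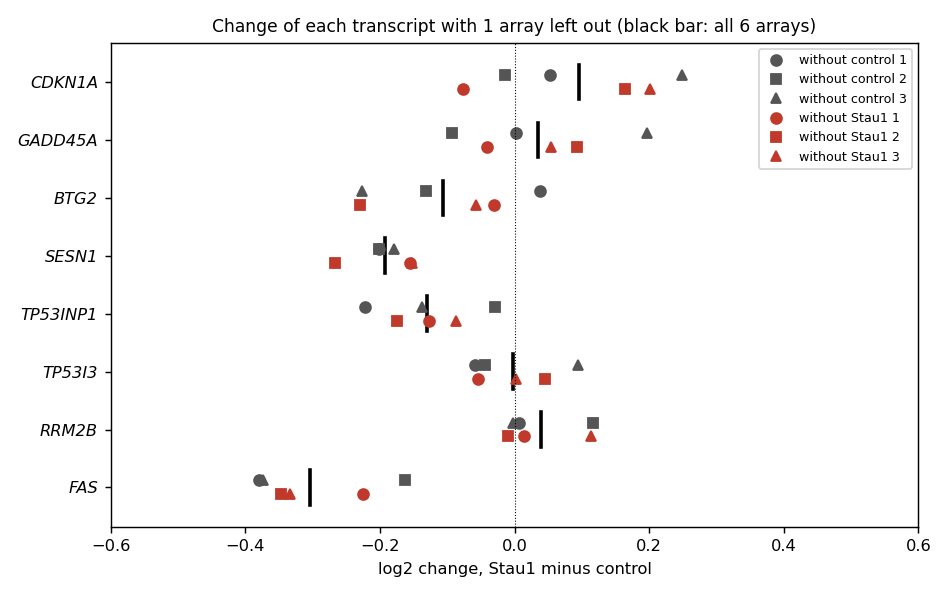
Difference between Stau1 and control arrays (log2, horizontal axis) for the 8 tested transcripts with each array left out in turn (grey symbols, a control array; red symbols, a Stau1 array), beside the value from all 6 arrays (black bar). SESN1, TP53INP1 and FAS stay below 0 in all 6 cases, and the other 5 fall on both sides of 0. For SESN1 and FAS, whose groups are apart, the side of 0 was fixed in advance, apart from shifts in normalization.

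A wider list of 58 other p53 targets was all present in the table. Of these, 40 were kept, and 14 had a detection p under 0.05 on no array. Those 14 were not all dim: they include STEAP3 and LRDD, rows of several probes, named after their values were seen. Their signal intensities, 261 to 315 and 148 to 235, were above the estimated background means. Among the 40, 0 changed by limma after adjustment or at an unadjusted p under 0.05. Of the 40, 23 had a higher and 17 a lower mean in Stau1 arrays, with a median difference of 0.03 and a range of -0.33 to 0.15, beside -0.00206 for the median of all kept rows. The median lay at 0.08 with median scaling, which put that of all kept rows at 0.07, and below 0 without control replicate 1 (-0.06), control replicate 2 (-0.03) or Stau1 replicate 1 (-0.00488) and with array weights (-0.00502).

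By role, 6 of 10 genes of arrest and growth were kept, among them CCNG1 (cyclin G1) at 0.08 and PPM1D (the phosphatase WIP1, which resets the damage response) at -0.01; the stress hormone GDF15 was detected on 2 arrays and the checkpoint 14-3-3 protein gene SFN on none. Of 16 genes of cell death, 11 were kept, 8 of them with a higher and 3 with a lower mean. They included the pore-forming BAX at 0.01, the BH3-only PMAIP1 (NOXA) at -0.15 and ZMAT3, an RNA-binding zinc finger protein, at 0.10, whereas BBC3 (PUMA) was not well above background on any array. All 5 genes of DNA repair were kept, with DDB2 at -0.08 and XPC at 0.10, both of which recognize ultraviolet damage. Each of these differences is a log2 value with a limma adjusted p of 0.999.

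Of 12 genes of metabolism, redox and autophagy, 9 were kept, 3 with a higher and 6 with a lower mean, and their median difference was -0.08. SESN2, the second sestrin gene of the lists, stood at 0.12, opposite in sign to SESN1, and C12ORF5, which codes for the fructose bisphosphatase TIGAR, at -0.12, while FDXR (ferredoxin reductase) was detected on 1 array only. Of the 40 kept genes of the wider list, 3 had groups that did not overlap, beside 7.91% of all kept rows: SPATA18, FUCA1 and CMBL, all of this role. SPATA18, which codes for a mitochondrial quality control protein, was at 6.45, 6.63 and 6.59 in control and 6.29, 6.39 and 6.09 in Stau1 arrays (difference -0.30, SE 0.15, limma unadjusted p = 0.069 and adjusted p = 0.999), with every Stau1 array below every control array. FUCA1, which codes for a lysosomal fucosidase, differed by -0.21 and CMBL by -0.14; both were named after their values were seen. The other lower genes of lowest p were the growth factor gene TGFA (-0.30, limma unadjusted p = 0.0712) and PLTP, a phospholipid transfer protein (-0.33, limma unadjusted p = 0.0716). The higher ones were ASCC3 (0.14), KIAA0247 (0.15) and XPC, none with a limma unadjusted p under 0.359.

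**Figure D5:**
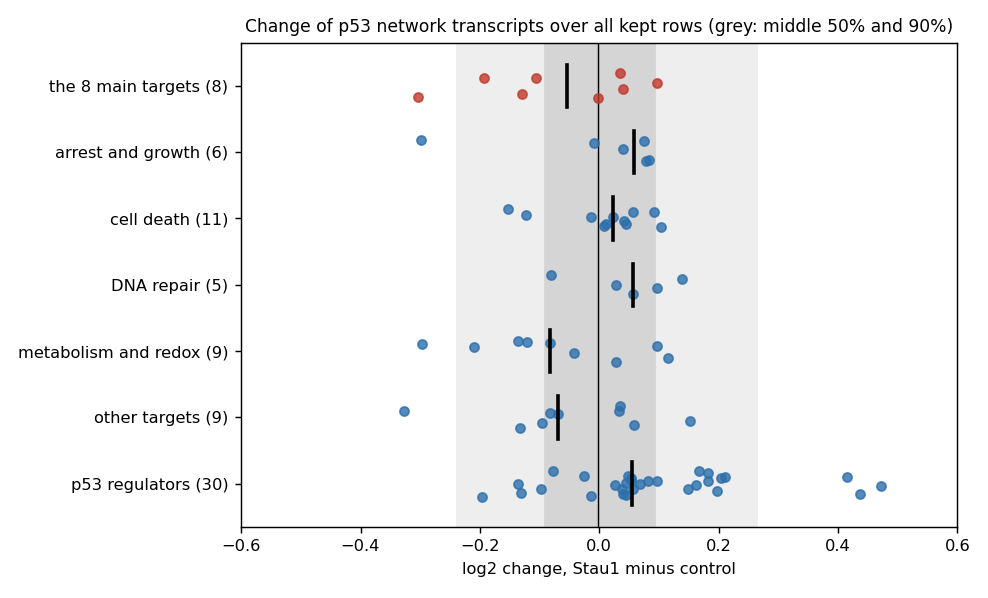
Difference between Stau1 and control arrays (log2, horizontal axis) of every kept transcript of the p53 network by role, with the number kept in brackets; black bars are medians, and grey bands hold the middle 50% and 90% of all kept rows. The 40 other targets have a median of 0.03. Above the grey bands lie 3 regulators (CREBBP, EP300 and HIPK2), at 0.41 to 0.47. Below the bands lie FAS, TGFA, SPATA18 and PLTP, at -0.33 to -0.30.

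Of 32 genes whose products act on p53, all were present and 30 were kept. After adjustment 0 changed, and 3 had a limma unadjusted p under 0.05 (beside 3.73% of all kept rows), all with higher means in Stau1 arrays. That count was 0 without Stau1 replicate 2, 0 without Stau1 replicate 3, 1 with median scaling and 7 with array weights. Over all rows tested, the counts in these settings were 405, 222, 241 and 1298, in place of 495. CREBBP, which codes for the acetyltransferase CBP, stood at 7.82 ± 0.24 in control and 8.29 ± 0.26 in Stau1 arrays (log2, mean ± SD, n = 3 each), a difference of 0.47 (SE 0.17, limma unadjusted p = 0.0158 and adjusted p = 0.999). EP300, which codes for its close relative p300, stood at 7.52, 7.05 and 7.37 in control and 7.58, 7.85 and 7.82 in Stau1 arrays, a difference of 0.44 (SE 0.16, limma unadjusted p = 0.0184 and adjusted p = 0.999). The groups of EP300 did not overlap and those of CREBBP did. HIPK2, a kinase that phosphorylates p53 in the response to severe damage, differed by 0.41 (SE 0.18, limma unadjusted p = 0.042 and adjusted p = 0.999), and its groups overlapped. CBP and p300 acetylate p53 and serve it as coactivators.

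Over the 30 regulators, 23 (76.7%, beside 49.4% of all kept rows) had a higher and 7 a lower mean, and the median difference was 0.06, beside -0.00206 for all kept rows. It lay at 0.15 with median scaling, under which the median of all kept rows was 0.07. The lower regulators of lowest p were DAXX, a histone chaperone that binds MDM2 (-0.20), the checkpoint kinase gene CHEK2 (-0.14) and CDKN2A, which codes for p16 and for the MDM2 inhibitor ARF (-0.13), none with a limma unadjusted p under 0.162. The groups of 3 of the 30 regulators did not overlap, beside 7.91% of all kept rows: EP300 and the casein kinase gene CSNK1E, higher, and CHEK2, lower. Of the regulators, CSNK1E was named after its values were seen.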

How the data were processed

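Total RNA of 3 control and 3 Stau1 samples was labelled with biotin and hybridized to Illumina HumanWG-6 v3 BeadChips. Per the file headers, the authors exported a gene profile from BeadStudio, so each of the 37879 rows averages the probes of a gene. Its signal intensity was deposited with neither background subtraction nor normalization, beside a detection p-value, the standard error over beads and the number of beads. Every value column was mapped to a sample by its name. The methods name variance stabilization, spline normalization and a t-test for immunoprecipitated RNA; for these samples the study gives a fold threshold and a p-value without naming the test. Probe sequences and positions and negative control beads were not used here.

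With limma 3.58.1 in R 4.3.3, the background was inferred from detection p-values over the 30932 rows of 1 probe (normexp, offset 16) and the values were quantile-normalized and put on the log2 scale. Quantile normalization gives all arrays 1 distribution, so that a shift of most transcripts together would not show. The rows kept (13285) had a detection p below 0.05 on 3 arrays or more. Groups, taken from the transfection in the labels, were compared with lmFit and eBayes (variance trend) and Benjamini-Hochberg adjustment over kept rows at 0.05, with 95% intervals. The number of arrays limits the precision. The fit was tested on simulated data. Promoter windows were searched in Python 3.11.15, and figures drawn with matplotlib 3.10.9.

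The 9 genes and the lists were chosen, from general knowledge, with earlier results of these data known. Named were all 9, MDM4, STAU1, 13 further targets whatever their values, the up to 3 kept rows per direction of lowest unadjusted p in each list, and the 3 rows most correlated with CDKN1A; none was sought for MDM2, which was not kept. Of the genes under this rule, 1 is not reported here. Of the listed symbols, 3 were matched under another name. Alternatives were other background corrections, offset, normalizations and filters, array weights, no variance trend, a replicate block, the methods' t-test and fits without 1 array; the count of genes with separate groups without each array was added after the data were seen. Replicate numbers were shared by the groups, but the deviations of same-numbered arrays correlated at 0.02, 0.26 and -0.14, and the numbers were not taken as pairs.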

Additional observations from a re-analysis of the deposited data

How the results depend on the processing

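No tested transcript of the 9 changed past the threshold under any of 17 alternatives (8 tested in most, 6 with the strict detection filter, 9 with no filter), the lowest adjusted p being 0.358 (FAS without control replicate 3). The filters, the variance trend and the replicate block do not move a difference of means, so the sign could not reverse under them. Of 126 values of single transcripts under an alternative, these included, 113 kept their sign and 13 reversed. These were BTG2 without control replicate 1 (0.0384), CDKN1A without control replicate 2 (-0.0137) or Stau1 replicate 1 (-0.076), GADD45A without the same arrays (-0.0924 and -0.0414), RRM2B with array weights (-0.0729) and without control replicate 3 (-0.0021) or Stau1 replicate 2 (-0.00969), and TP53I3 with median scaling (0.0661, a scaling that moved the median of all kept rows from -0.00206 to 0.066), with array weights (0.00425) and without control replicate 3 (0.0947), Stau1 replicate 2 (0.0447) or Stau1 replicate 3 (0.00229). The cause was not tested. Leaving out each array in turn gave -0.229 to 0.0384 for BTG2, -0.076 to 0.249 for CDKN1A, -0.38 to -0.162 for FAS, -0.0924 to 0.197 for GADD45A, -0.00969 to 0.116 for RRM2B, -0.267 to -0.153 for SESN1, -0.059 to 0.0947 for TP53I3 and -0.222 to -0.0296 for TP53INP1. SESN1 and FAS, separate with all 6 arrays, stayed separate without any 1, which apart from shifts in normalization could not be otherwise. TP53INP1 joined them without control replicate 1. With 1 array left out, 12.5% to 29.2% of rows had separate groups. The median of the 40 kept other targets moved to 0.0847 with median scaling and lay between -0.0554 and 0.0389 with 1 array left out, and that of the regulators moved to 0.145 and lay between 0.0532 and 0.106. Over all rows 0 to 47 were called with 1 array left out, the 47 without control replicate 3, none a p53 target tested here, and 0 otherwise. At an unadjusted p under 0.05 there were 241 (median scaling), 1298 (array weights), 1564 (no filter) and, with 1 array left out, from 222 (without Stau1 replicate 3) to 1658 (without control replicate 3) in place of 495. With the replicate block 0 rows were called and 604 had an unadjusted p under 0.05, and the block changed no call. CDKN1A and FAS did not pass a detection p under 0.01 on all arrays and have no value there, and MDM2, not well above background, was tested only with no filter (adjusted p = 0.999).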
